A study of Mus musculus with 8 samples.

Results

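The genes described here are 10 members of the bone morphogenetic protein (BMP) pathway, taken as the array features whose platform symbol was Bmp2, Bmp4, Bmp5, Grem1, Bambi, Smad6, Smad7, Id1, Id2 or Id3. All 10 were among the 17234 genes tested, and 9 had 1 feature each. Bmp4 had 2 features, of which the brighter one was used. The arrays profiled whole lungs of newborn C57Bl/6J mice on 1-colour Agilent arrays, with 4 arrays labelled Fgf10 +/- (titled TG_hyperoxia, here TG arrays 1 to 4) and 4 labelled wild-type (titled WT_hyperoxia, here WT arrays 1 to 4). Pups of both genotypes spent postnatal days 0 to 3 in a chamber with 85% oxygen, so every value is a genotype difference under high oxygen. The sources used here do not say how the Fgf10 allele was made or whether pups were pooled or shared litters, and the p-values cover only the spread among these samples, which may be technical in part. Values are log2 intensities, and a log2 fold change is TG minus WT.

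BMPs are secreted ligands of the TGF-beta family. They bind pairs of type 1 and type 2 receptors, which phosphorylate SMAD1, SMAD5 and SMAD9, and these enter the nucleus with SMAD4 and switch on genes such as the Id genes, whose products inhibit differentiation factors of the basic helix-loop-helix class, and the inhibitory SMADs, which feed back on the receptors. Antagonists such as gremlin and noggin trap the ligands outside the cell. In the branching lung BMP4 is made in the distal epithelial tips, where FGF10 from the mesenchyme raises it, and in the adjacent mesenchyme, and it limits the outgrowth that FGF10 drives.

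None of the 10 genes passed limma's test at a Benjamini-Hochberg adjusted p below 0.05, against 0.795% of all tested genes. The ligands did not go one way. Bmp4 had a lower mean in TG arrays, while Bmp5 and Bmp2 had higher means. Among the targets Id2 had a higher mean in TG arrays, and Id1 and Id3 differed little from WT arrays. These 4 genes, Bmp2, Bmp4, Bmp5 and Id2, had an unadjusted p below 0.05, compared with 11.2% of all tested genes. In 2 of the 10, Bmp5 and Id2, the groups did not overlap, against 6.64% of all tested genes. The median log2 fold change of the 10 genes was 0.01, with 5 positive and 5 negative, beside 0.01 over all tested genes. The median size of the log2 fold change, without regard to sign, was 0.47 for the 10 genes and 0.16 over all tested genes. The 10 include the dim genes Grem1 (-0.96, SE 0.60) and Bambi (-0.54, SE 0.39). The members were chosen with earlier results of these data known, so these comparisons with all tested genes describe the list and are not a test of it. The count of members called was also 0 without the variance trend and with each gene on its own variance, and it was 1 (Id2) without WT array 1.

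Promoter sequences are shown for the ligands that differed in opposite directions (Bmp4 and Bmp5) and for a feedback gene and a target that hold a SMAD-type motif (Smad6 and Id2). They run from 250 bases before to 50 bases after the gene's start, 5′ to 3′ on the gene's strand, from RefSeq on GRCm38.p6. Bmp4 lies at chr14:46390620-46390919 (minus strand), Bmp5 at chr9:75775115-75775414 (plus strand), Smad6 at chr9:64022010-64022309 (minus strand) and Id2 at chr12:25096043-25096342 (minus strand). Capitals mark the motifs searched on both strands: the SMAD palindrome GTCTAGAC, the GC-rich SMAD1 and SMAD5 element GGCGCC, and the SMAD box GTCTG, read as CAGAC on the other strand.
Bmp4: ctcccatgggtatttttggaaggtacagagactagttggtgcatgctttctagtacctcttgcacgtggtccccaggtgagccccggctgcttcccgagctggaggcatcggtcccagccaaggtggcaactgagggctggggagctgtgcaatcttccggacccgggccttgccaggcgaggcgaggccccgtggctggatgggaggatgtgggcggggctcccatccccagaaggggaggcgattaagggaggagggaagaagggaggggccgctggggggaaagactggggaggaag
Bmp5: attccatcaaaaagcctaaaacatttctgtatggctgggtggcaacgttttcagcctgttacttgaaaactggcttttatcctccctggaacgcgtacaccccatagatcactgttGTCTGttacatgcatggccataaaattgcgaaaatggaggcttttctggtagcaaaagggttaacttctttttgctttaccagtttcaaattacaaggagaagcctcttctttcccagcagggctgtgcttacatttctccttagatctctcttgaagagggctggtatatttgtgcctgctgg
Smad6: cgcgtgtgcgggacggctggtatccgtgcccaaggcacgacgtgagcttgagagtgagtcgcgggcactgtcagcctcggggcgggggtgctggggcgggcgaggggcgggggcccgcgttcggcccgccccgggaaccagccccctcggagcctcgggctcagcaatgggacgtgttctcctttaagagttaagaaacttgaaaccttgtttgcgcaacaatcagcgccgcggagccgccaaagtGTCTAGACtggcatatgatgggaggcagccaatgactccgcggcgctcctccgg
Id2: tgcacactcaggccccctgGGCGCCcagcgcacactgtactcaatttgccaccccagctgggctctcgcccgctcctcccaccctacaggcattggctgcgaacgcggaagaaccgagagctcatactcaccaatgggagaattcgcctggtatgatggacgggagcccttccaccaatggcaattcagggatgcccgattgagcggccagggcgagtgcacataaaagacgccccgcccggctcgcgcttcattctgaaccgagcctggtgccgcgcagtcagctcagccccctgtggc

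The palindrome of Smad6 begins 4 bases before the gene's start and runs across it, and 0.213% of the 32851 promoters in the table hold this motif. The GGCGCC of Id2 begins 231 bases before the start, and 11.9% of promoters hold one. GTCTG occurs once in the Bmp5 promoter, 134 bases before the start, and in 49.6% of promoters. The Bmp4 window held none of the 3 motifs, and no motifs overlapped. Promoters were found for 6 of the 10 genes. Of the other 2, Grem1 held a GGCGCC 78 bases before its start and 2 SMAD boxes, and Id3 held 2 SMAD boxes. No entry was matched for Bmp2, Id1, Smad7 and Bambi. A match of letters is a description of the sequence and was not tested against the array values.

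Bmp4 encodes a BMP ligand central to lung branching. It read 10.85, 11.17, 10.94 and 11.37 in TG arrays 1 to 4, against 11.33, 11.58, 11.79 and 11.51 in WT arrays 1 to 4. The groups overlapped by a single pair of arrays, TG array 4 lying just above WT array 1, and the other 3 TG arrays lay below all WT arrays. The means were 11.08 ± 0.23 in TG arrays and 11.55 ± 0.19 in WT arrays (SD, n = 4 each), a log2 fold change of -0.46 (SE 0.12, 95% CI -0.73 to -0.20, adjusted p = 0.11 from limma, unadjusted p = 0.00198). On the linear scale Bmp4 was 1.38-fold lower in TG arrays. It ranked 310 among the 17234 genes by unadjusted p. The second Bmp4 feature had a mean of 2.45 over the 8 arrays, below the filter level of 2.76, and its log2 fold change was -0.38 (SE 0.30). Without WT array 1 the adjusted p of Bmp4 was 0.0539. Over the alternatives that used the brighter feature it lay between 0.0539 and 0.403, the highest with each gene on its own variance. The second feature had a limma adjusted p = 0.761 in a fit over 31413 single features.

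Bmp5 encodes a ligand that is made in lung mesenchyme. It read 6.08, 6.04, 6.47 and 6.70 in TG arrays 1 to 4, against 5.73, 5.50, 5.38 and 5.62 in WT arrays 1 to 4. All 4 TG arrays were above all 4 WT arrays. Its log2 fold change of 0.77 (95% CI 0.29 to 1.24) corresponded to 1.70 times the WT level, with a limma adjusted p = 0.161. With 1 array left out in turn the log2 fold change stayed between 0.64 and 0.86, and no alternative brought the adjusted p below 0.125.

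Bmp2, a ligand that like BMP4 acts through the receptors Bmpr1a and Bmpr2, read 8.04, 8.07, 8.21 and 7.74 in TG arrays 1 to 4, against 7.27, 7.29, 7.45 and 8.06 in WT arrays 1 to 4. WT array 4 lay among the TG arrays, and the other 3 WT arrays lay below all of them. The log2 fold change was 0.50 (95% CI 0.10 to 0.90, limma adjusted p = 0.313), and it was 0.68 without WT array 4, with an adjusted p = 0.0926. WT array 4 also carried the atrial peptide gene Nppa at 11.25, against 4.55 to 6.25 in TG arrays and 4.63 to 4.86 in the other WT arrays. The mean of 7 heart muscle markers, Nppa among them, was 8.40 to 8.62 in TG arrays and 9.63 in WT array 4. It was 8.02 to 8.53 in the other WT arrays. Because Nppa is part of that mean, the mean is not a separate sign of heart tissue in WT array 4. None of the 7 was called, and their part in the Bmp2 value of that array was not tested.

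**Figure D1:**
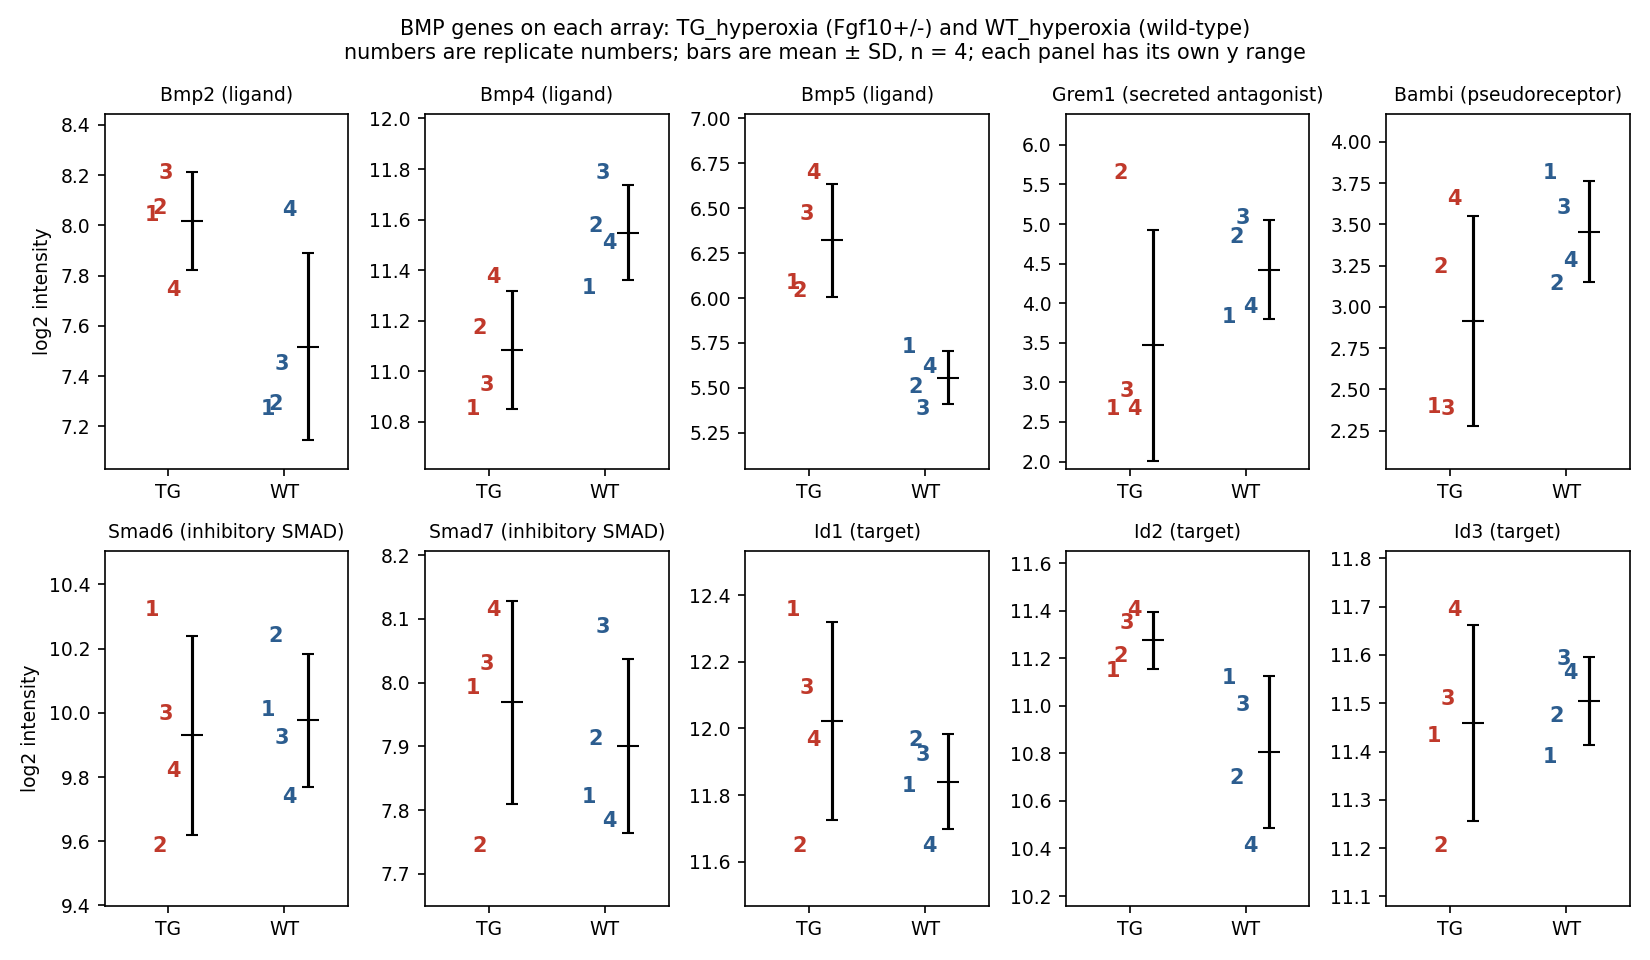
Log2 intensity of each of the 10 BMP genes (y axis, own range per panel) on each array, TG_hyperoxia left of WT_hyperoxia, with digits giving the replicate number and bars the mean ± SD (n = 4). Bmp5 and Id2 show all 4 TG arrays above all 4 WT arrays, and Grem1 shows TG array 2 at 5.65 apart from the other TG arrays.

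Neither inhibitor that acts outside the cell or at its surface passed the test. Grem1, which encodes the secreted BMP antagonist gremlin, read 2.67, 5.65, 2.90 and 2.66 in TG arrays 1 to 4, against 3.83, 4.84, 5.08 and 3.95 in WT arrays 1 to 4. TG arrays 1, 3 and 4 lay below all WT arrays and near the filter level of 2.76, and TG array 2 lay above all of them. The log2 fold change was -0.96 (SE 0.60, 95% CI -2.25 to 0.33, limma adjusted p = 0.593) and became -1.68 without TG array 2, with an adjusted p = 0.117. The table gives no background level, so whether the low Grem1 values measure any transcript is unknown. Bambi, a pseudoreceptor that blocks signalling by TGF-beta and BMP receptors, read 2.39, 3.24, 2.38 and 3.65 in TG arrays 1 to 4, against 3.81, 3.14, 3.60 and 3.28 in WT arrays 1 to 4. The Bambi groups overlapped, and the log2 fold change was -0.54 (95% CI -1.39 to 0.31, limma adjusted p = 0.663). TG arrays 1 and 3 lay below the filter level for Bambi, so the limit given for Grem1 holds for it too.

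The inhibitory SMADs differed by less than the spread between arrays. Smad6, which preferentially blocks BMP signals, read 10.32, 9.58, 9.996 and 9.82 in TG arrays 1 to 4, against 10.01, 10.24, 9.92 and 9.74 in WT arrays 1 to 4. TG arrays held both the highest and the lowest value, and the log2 fold change was -0.05 (95% CI -0.37 to 0.27). Smad7, which blocks TGF-beta and BMP signals, read 7.99, 7.74, 8.03 and 8.11 in TG arrays 1 to 4, against 7.82, 7.91, 8.09 and 7.78 in WT arrays 1 to 4. The groups again overlapped along most of their range, with a log2 fold change of 0.07 (95% CI -0.23 to 0.36). The limma adjusted p was 0.94 for Smad6 and 0.9 for Smad7. The intervals still allow differences of up to 1.29 times the WT level in Smad7.

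Of the 3 Id genes, Id2 stood apart in its values. Id2, which also marks the distal tip progenitors of the embryonic lung epithelium, read 11.15, 11.21, 11.35 and 11.40 in TG arrays 1 to 4, against 11.12, 10.70, 11.002 and 10.41 in WT arrays 1 to 4. Every TG array lay above every WT array, although TG array 1 and WT array 1 were only just apart. The log2 fold change was 0.47 (95% CI 0.18 to 0.76), or 1.38 times the WT level, with a limma adjusted p = 0.154. It was called without WT array 1, at a log2 fold change of 0.57 and an adjusted p = 0.0465, and over all 19 alternatives the adjusted p lay between 0.0465 and 0.451. Without WT array 4, the lowest for Id2, the log2 fold change was 0.34.

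Markers of alveolar type 2 cells differed between the groups in the same direction as Id2. Of 9 such markers 5 were called higher, against 0.226% of all tested genes. These calls depended on the variance model. Over the whole array 0 genes were called higher without the variance trend and 1 with each gene on its own variance. The mean log2 intensity of the 9 was 13.03 to 13.22 in TG arrays and 12.71 to 12.79 in WT arrays. None lay near the filter level, the dimmest of the 9 averaging 9.60. Sftpc averaged 15.987, close to the highest value on the arrays (15.990), so a difference in it may be hidden. The markers not called were Sftpc, Sftpb, Sftpa1 and Napsa, with log2 fold changes of 0.001, 0.14, 0.10 and 0.29. None of 8 alveolar type 1 markers was called. Their mean overlapped between the groups at 11.83 to 12.02 in TG arrays and 11.89 to 11.99 in WT arrays. In whole lung, a change in the number of cells of a type and a change in RNA per cell cannot be told apart, and the part of these cells in the Id2 difference was not tested.

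Id1, a widely used readout of BMP signalling, read 12.36, 11.65, 12.12 and 11.97 in TG arrays 1 to 4, against 11.83, 11.97, 11.92 and 11.65 in WT arrays 1 to 4. TG array 1 was highest, and TG array 2 and WT array 4 shared the lowest level. The log2 fold change was 0.18 (95% CI -0.09 to 0.46, limma adjusted p = 0.648), and it was 0.31 without TG array 2 and 0.07 without TG array 1. Id3 read 11.43, 11.20, 11.51 and 11.69 in TG arrays 1 to 4, against 11.39, 11.47, 11.59 and 11.56 in WT arrays 1 to 4. The WT values of Id3 lay within the TG range, and its log2 fold change was -0.04 (95% CI -0.26 to 0.17, limma adjusted p = 0.915). That interval excludes a difference of more than 1.13 times the WT level upward.

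**Figure D2:**
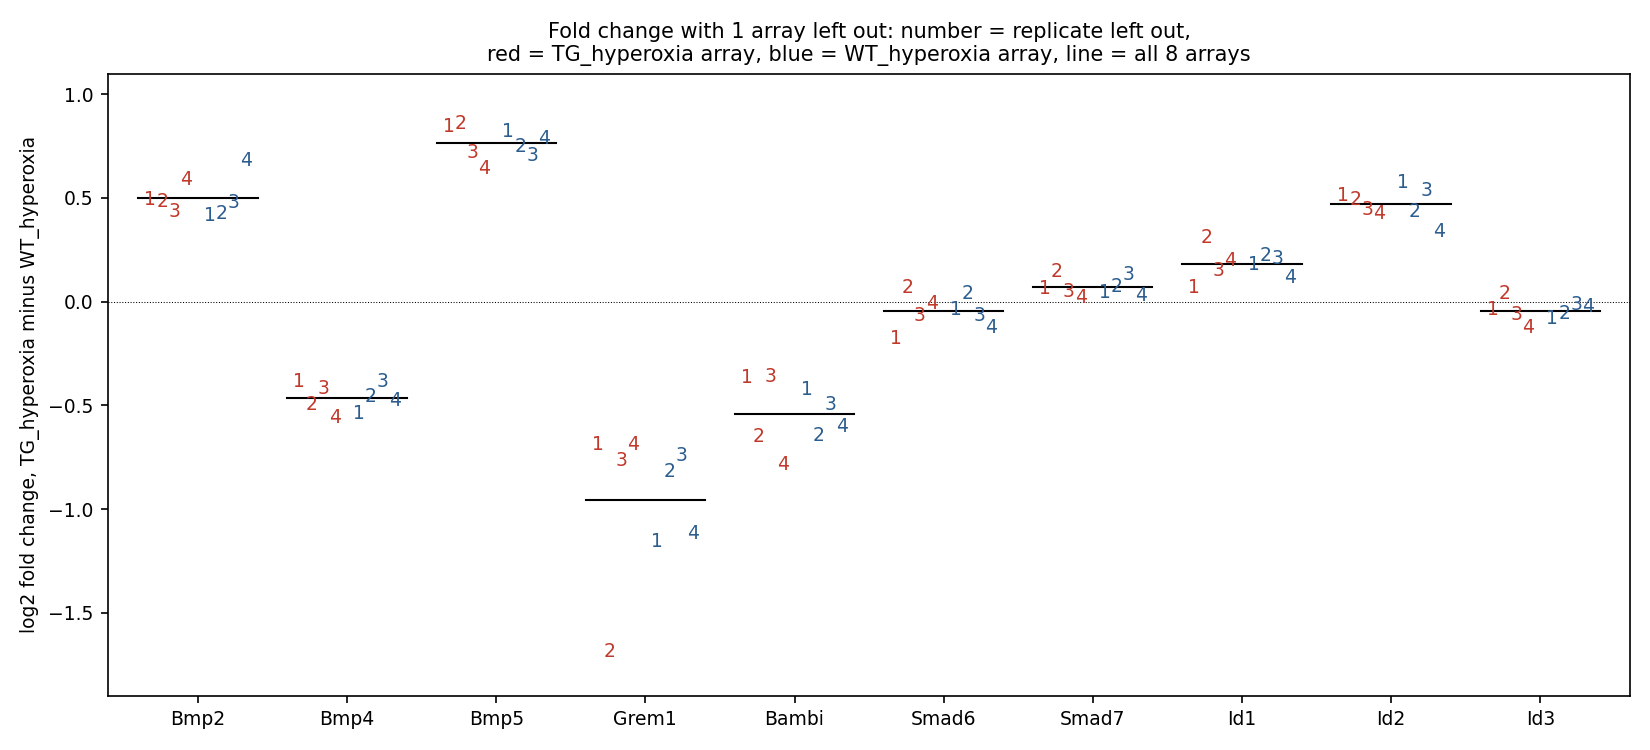
Log2 fold change (TG_hyperoxia minus WT_hyperoxia, y axis) of each BMP gene with all 8 arrays (line) and with 1 array left out (digit, red for a TG array and blue for a WT array). Bmp2, Bmp5, Id1, Id2 and Smad7 stay above 0 and Bmp4, Grem1 and Bambi below 0 in all 8 runs, while Smad6 and Id3 cross 0, and Grem1 moves to -1.68 without TG array 2.

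The genes were also compared with each other from array to array. All 45 pairs were compared by Pearson's r over the 8 arrays with two-sided exact permutation tests. In 4 pairs the unadjusted p was below 0.05, and none passed Benjamini-Hochberg adjustment over the 45 pairs (smallest adjusted p = 0.345). The target Id1 and the feedback inhibitor Smad6 had r = 0.81 (exact permutation p = 0.0145, Spearman's rho = 0.79 with p = 0.0279). Taken as deviations from the group means, r was 0.94. Without TG arrays 1 and 2, the farthest from the median of Smad6, r was 0.50.

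Id3 and Smad7 had r = 0.73 (exact permutation p = 0.0347, rho = 0.74 with p = 0.0458). The value was 0.81 as deviations from the group means and 0.87 without TG array 2 and WT array 4. Bmp5 and Id2 had r = 0.75 (exact permutation p = 0.0307, rho = 0.88 with p = 0.00724), which was 0.31 as deviations from the group means and 0.56 without TG arrays 3 and 4. Bmp4 and Bambi had r = 0.74 (exact permutation p = 0.0358), while rho was 0.48 with p = 0.243. In that pair r was 0.62 as deviations from the group means and 0.58 without TG array 1 and WT array 3. Over the 4 TG arrays alone r was 0.98 for Bmp4 and Bambi, and over the 4 WT arrays -0.27. The same values were 0.96 and 0.004 for Bmp5 and Id2, 0.97 and 0.49 for Smad7 and Id3, and 0.99 and 0.84 for Smad6 and Id1. With 4 arrays r varies widely, and pairs with a larger p also reached such values. Bmp4 and Bmp5 had 0.54 over TG arrays and -0.99 over WT arrays, and Grem1 and Smad7 had -0.95 and 0.90. A difference in r between the groups was not tested. TG array 2 was the lowest of the 8 arrays for Smad6, Smad7 and Id3 and lay level with WT array 4 at the lowest value of Id1.

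**Figure D3:**
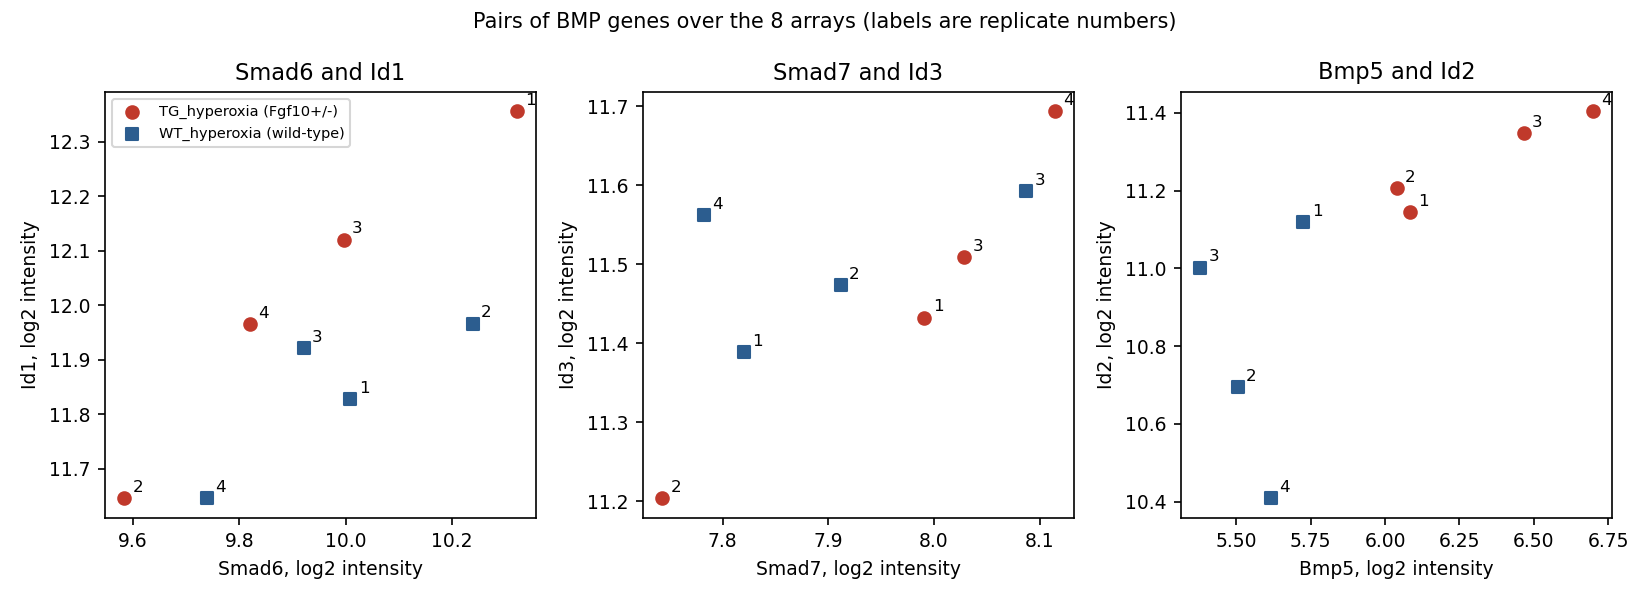
Log2 intensity of 3 pairs of BMP genes on the 8 arrays, with TG_hyperoxia as red circles and WT_hyperoxia as blue squares, labelled by replicate number. Smad6 and Id1 (r = 0.81) and Smad7 and Id3 (r = 0.73) run from lower left to upper right over both groups, while for Bmp5 and Id2 (r = 0.75) all 4 TG points lie above and to the right of all 4 WT points.

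The wider pathway was read from a list of 48 further genes, of which 43 were tested. Follistatin (Fst) and follistatin-like 1 (Fstl1) were called lower in TG arrays and none was called higher, against 0.569% of all tested genes called lower and 0.226% called higher. The unadjusted limma p was below 0.05 in 9 of the 43, against 11.2% of all tested genes. This list was also chosen with earlier results of these data known. The median log2 fold change of the 43 was -0.13, with 16 positive and 27 negative. Bmp10, Rgmb, Chrdl2 and Sost lay below the filter level.

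The secreted antagonists and modulators held both called genes. Of 12 tested members 2 were called lower, against 0.569% of all tested genes, and 9 of the 12 had a negative sign (median -0.22). Fst, whose product binds activins tightly and BMPs more weakly, read 6.96, 6.79, 6.96 and 6.32 in TG arrays 1 to 4, against 7.45, 8.06, 7.89 and 7.80 in WT arrays 1 to 4. The groups lay apart, and Fst fell by 1.04 on the log2 scale (SE 0.19, 95% CI -1.45 to -0.63, adjusted p = 0.0217 from limma). Fstl1, a secreted glycoprotein that antagonises BMP4 in the developing mouse lung, read 13.20, 13.04, 12.96 and 13.12 in TG arrays 1 to 4, against 13.33, 13.45, 13.42 and 13.52 in WT arrays 1 to 4. All TG values of Fstl1 were below all WT values, and it fell by 0.35 on the log2 scale (95% CI -0.50 to -0.19, limma adjusted p = 0.046).

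Both calls were fragile. When each array was left out in turn, Fst was called in 3 of 8 fits and was not called without TG array 2 or 4 or WT array 2, 3 or 4 (adjusted p = 0.0536 to 0.0965). Among these fits Fstl1 was called only without WT array 1, and with the replicate number as a block its adjusted p was 0.0852. The related Fstl3 read 9.28, 9.31, 9.14 and 9.27 in TG arrays 1 to 4, against 9.45, 9.84, 9.46 and 10.09 in WT arrays 1 to 4. Its groups did not overlap, but at a log2 fold change of -0.46 (SE 0.14) it did not pass (limma adjusted p = 0.174). The classical antagonist noggin (Nog) had a value of -0.17 (SE 0.39).

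Markers of other cell types are given beside these values. Of 8 measured markers of dividing cells 6 were called lower, against 0.569% of all tested genes. These calls too depended on the variance model. Over the whole array 1 gene was called lower without the variance trend and 0 with each gene on its own variance. The mean log2 intensity of the 8 was 7.10 to 7.79 in TG arrays and 8.21 to 9.08 in WT arrays. None of 8 macrophage markers was called, but their mean was 8.18 to 8.47 in TG arrays and 8.51 to 9.02 in WT arrays. The groups did not overlap in this mean, as was so for 6.64% of single tested genes. None of 8 smooth muscle markers was called, and their mean overlapped between the groups at 9.63 to 9.90 in TG arrays and 9.83 to 10.27 in WT arrays. None of 8 fibroblast markers was called either, and their mean overlapped at 10.76 to 11.31 in TG arrays and 10.89 to 11.42 in WT arrays. The dimmest of these averaged 5.60 in dividing cells, 4.30 in macrophages, 2.83 in smooth muscle and 6.11 in fibroblasts. Their part in the values of Bmp4, Fst and Fstl1 was not tested.

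Receptors and transducers showed no called gene. Among 9 receptors and co-receptors, the endothelial type 1 receptor Acvrl1 had a log2 fold change of 0.24 (SE 0.09, limma adjusted p = 0.337) and its co-receptor endoglin (Eng) had -0.24 (SE 0.10, limma adjusted p = 0.39). The type 2 receptor Acvr2b had 0.18 (SE 0.10). The type 1 receptor Bmpr1a had 0.05 (SE 0.12) and the type 2 receptor Bmpr2 had -0.21 (SE 0.17), which was -0.02 without WT array 2. None of 12 endothelial markers was called, and their mean was 10.34 to 10.55 in TG arrays and 10.43 to 10.71 in WT arrays. Of the receptor-activated SMADs, Smad1 had 0.17 (SE 0.28), Smad5 0.09 (SE 0.08) and Smad9 -0.56 (SE 0.31). For Smad1 and Smad5 the sign turned when all features of the gene were averaged, and Smad1 had 0.0022 without TG array 4.

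Among 9 other ligands, Gdf5, best known from joint and cartilage formation, had a log2 fold change of 0.72 (SE 0.29, limma adjusted p = 0.362). With the features of the gene averaged Gdf5 had 0.35. Gdf7 had 0.72 (SE 0.41), and Bmp3 had -0.24 (SE 0.18), which was -0.05 without TG array 4. Of 5 further targets none was called. The homeobox gene Msx1 was at -0.85 (SE 0.32, limma adjusted p = 0.312), Atoh8 had -0.42 (SE 0.30) and the Notch and BMP target Hey1 had -0.13 (SE 0.15).

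**Figure D4:**
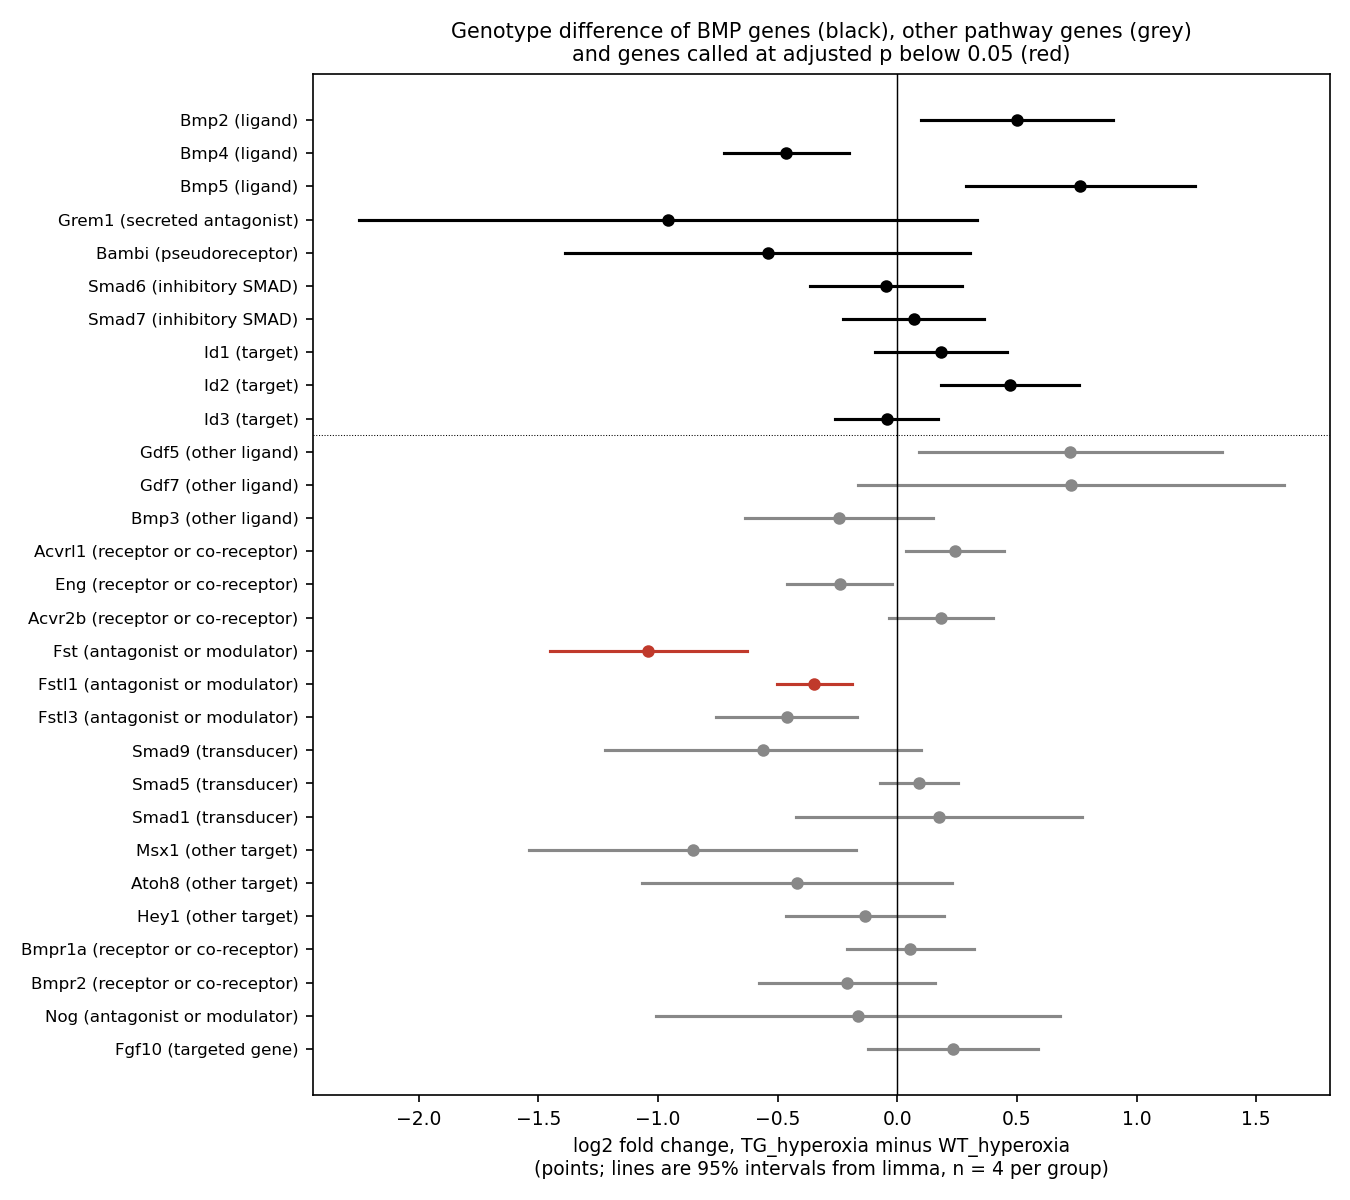
Log2 fold change (TG_hyperoxia minus WT_hyperoxia, points) with 95% intervals (lines) for the 10 BMP genes (black, above the dotted line), other pathway genes (grey) and the genes called at an adjusted p below 0.05 (red). Only Fst and Fstl1 among those shown were called, and Bmp4 lies below 0 while Bmp2 and Bmp5 lie above it.

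Fgf10 itself read 7.81 to 8.28 in TG arrays and 7.53 to 8.16 in WT arrays, with a log2 fold change of 0.23 (95% CI -0.12 to 0.59), so its level did not separate the labels, and the sources used here do not place its features relative to the altered part of the gene. Xist, which is transcribed from the inactive X chromosome, read 1.93 and 2.63 in TG arrays 3 and 2 and 2.01 in WT array 3, against 6.29 to 6.85 in the other 5 arrays. Low Xist was thus not evenly shared between the groups. With Xist as covariate 80 genes were called rather than 137, and of the other pathway genes Fst was called but Fstl1 was not. Lung epithelial markers were bright on every array, the dimmest of the 8 averaging 8.96. The liver gene Serpina1a read 7.38 in WT array 2, against 2.16 to 3.49 in TG arrays and 2.11 to 2.67 in the other WT arrays. Pearson correlations between arrays lay between 0.971 and 0.98 within groups and between 0.969 and 0.982 across groups.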

How the data were processed

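The deposited table holds log2 intensities of 62976 features on 8 arrays. The submitters' processing notes name limma without a version, and the equal distributions of the deposited log2 columns look quantile-normalized, so no normalization was added. No source used here gives the background correction. Symbols came from the platform annotation for 31465 features and were updated through RefSeq accessions (29050 matched, 2933 updated). Features with a missing value (189 on the array, 52 of them with a symbol) were left out. So were those with a mean over all arrays below the 30th percentile (2.76). The feature with the highest mean stood for each gene. Genes were tested with limma 3.58.1 in R 4.3.3 (lmFit, eBayes with a variance trend, two-sided, Benjamini-Hochberg over 17234 genes). The fit was also run on simulated independent normal values. These do not cover correlated genes or arrays of unlike quality, so the run does not check the calls made here. The number of arrays limits the precision.

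The members and lists were chosen with earlier results of these data known. Of the 48 further pathway genes the text names each called gene, the 3 in each role with the smallest unadjusted p, and Bmpr1a, Bmpr2, Smad1, Smad5, Nog and Fgf10. Marker genes Nppa, Serpina1a and Xist were named after their values were seen. Correlations used 40320 permutations a pair. Alternatives covered filters, feature choice, variance model, array weights, normalization, Xist as covariate, the replicate block and arrays left out.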

Additional observations from a re-analysis of the deposited data

Results flagged for a closer look

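Among 29 named genes and 58 groups of 4 arrays, 3 held an array far from the other 3 of its group by Dixon's ratio, where chance gives about 1 group in 20, or 2.9. Grem1 read 5.65 in TG array 2, against 2.66 to 2.90 in the other TG arrays. Smad9 read 6.10 in WT array 2, against 5.18 to 5.33 in the other WT arrays. Smad1 read 6.14 in WT array 1, against 5.29 to 5.41 in the other WT arrays. Their causes were not tested.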

How the results depend on the processing

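Of 190 fold changes of the 10 BMP genes recomputed under alternatives, 186 kept their sign and their side of the threshold, 3 changed sign and 1 passed the threshold. The filters, the averaging of features, the variance models and the replicate block left these fold changes themselves unchanged. In those alternatives only the p-value could move, so the kept signs there carry no information. With 1 array left out, log2 fold changes ranged from -0.18 to 0.07 for Smad6 and from -0.12 to 0.04 for Id3, both crossing 0, and from 0.34 to 0.57 for Id2, which was called without WT array 1. Smad6 was 0.04 without WT array 2 and 0.069 without TG array 2, and Id3 was 0.041 without TG array 2. The number of BMP genes called ranged from 0 to 1 in these runs. The number of genes called on the array, 137, ranged from 34 without WT array 2 to 173 without WT array 1. It was 1 without the variance trend, 1 with each gene on its own variance and 80 with Xist as covariate. The number of other pathway genes called, 2, ranged from 0 to 2 with 1 array left out. It was 0 without the variance trend and with each gene on its own variance. It was 1 with no filter, with the mean of a gene's features, with quantile normalization again, with Xist as covariate and with the replicate block. With the features of a gene averaged, Smad1 turned to -0.14 and Smad5 to -0.10. With 1 array left out, Hey1 ranged from -0.22 to 0.0025 (0.00023 without TG array 2), Bmpr1a from -0.0087 to 0.15 and Nog from -0.38 to 0.26. The causes were not tested.

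Same-numbered arrays did not deviate together (r from -0.06 to 0.07 over 4 pairs, with 1 of 4 TG arrays correlating best with its own number), so the numbers are not taken as pairs. With the replicate number as a block 116 genes, 0 BMP genes and 1 other pathway gene (Fst) were called. Without a background level, dim values such as those of Grem1 and Bambi have unknown meaning.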
